A study of Mus musculus with 6 samples.

Results

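The genes of the translation initiation factors were examined in CD27SP NK cells of mice with 2 *Myc* genotypes. They comprised 45 Eif genes, taken by name as the family of these factors, of 25690 gene symbols in the tables. All 45 were present and had enough counts for a test. RNA had been sequenced from CD27SP cells, an immature subset of NK cells by CD27 and CD11b, sorted from the BM of mice backcrossed to C57BL/6. *Ncr1cre Myc* wt/wt mice were compared with *Ncr1cre Myc* fl/fl mice, with 3 libraries of each genotype, numbered 1, 2 and 4. Both genotypes carry the Cre recombinase under control of *Ncr1*, the gene of NKp46, so that in *Ncr1cre Myc* fl/fl mice *Myc* is removed only from cells that have begun to express NKp46. The mice of the study were sex- and age-matched and between 6 and 14 weeks old. The age of each mouse is not given in the sources used here, and nothing states whether a library came from 1 mouse or from several, so P-values measure the spread between these libraries.

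Initiation is the step of translation at which the small ribosomal subunit, loaded with the initiator tRNA, finds the start codon of an mRNA. The initiation factor eIF2 brings the initiator tRNA and is recharged with GTP by eIF2B. eIF3 is a scaffold of many subunits on the small ribosomal subunit, and eIF4F binds the cap of the mRNA and unwinds it. MYC is a transcription factor that binds E-boxes, and genes of the translation machinery are among those it is known to activate.

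*Myc* itself was lower in *Ncr1cre Myc* fl/fl cells, with 200.5, 183.4 and 164.3 counts per Mio (CPM, scaled by TMM) in wt/wt libraries 1, 2 and 4 and 61.5, 64.6 and 76.5 CPM in fl/fl libraries 1, 2 and 4 (log2 fold change −1.44, SE 0.15, adjusted p = 0.0019, edgeR). Estimated counts summed to 8101219 in wt/wt library 1 and to between 54550907 and 64962491 in the other libraries, which leaves wt/wt library 1 as the shallowest. The NK cell markers *Ncr1* and *Eomes* were abundant in every library, with at least 722.7 and 426.7 CPM. The summed level of 8 NK cell markers was between 11580 and 12243 CPM in wt/wt and between 13769 and 14796 CPM in fl/fl libraries, but none of the 8 was called by edgeR in either direction (1 lower and 2 higher at an unadjusted p below 0.05), and their log2 fold changes ran from −0.64 (*Gzma*) to 0.93 (*Prf1*). Some markers of other cells differed between the genotypes. The summed level of 8 basophil and mast cell markers was between 15.1 and 18.5 CPM in wt/wt and between 122 and 334 CPM in fl/fl libraries, and all 8 were higher at an adjusted p below 0.05. For granulocyte-monocyte progenitors 5 of 6 markers were higher (82.5 to 125 CPM against 522 to 879 CPM), for neutrophils 3 of 6 tested (3.64 to 15.8 CPM against 13.7 to 29.9 CPM), for monocytes 4 of 6 (1660 to 1866 CPM against 2087 to 2371 CPM) and for erythroid cells 4 of 5 (595 to 739 CPM against 1052 to 1175 CPM). The most abundant gene in each of the last 2 sums was not called, *Ccr2* (log2 fold change 0.25) and *Car2* (−0.09), whereas the called markers had log2 fold changes from 0.83 (*Ly6c2*) to 2.08 (*F13a1*) in monocytes and from 3.05 (*Hbb-bt*) to 3.29 (*Hba-a1*) in erythroid cells. No marker was called for B cells (4.55 to 8.37 CPM against 11.9 to 15.02 CPM) or T cells (254 to 509 CPM against 273 to 358 CPM). *Fcer1a*, *Ltf*, *Lcn2*, *Retnlg* and *Vpreb3* were at 0 in wt/wt library 1, as was *Vpreb3* in wt/wt library 4 and *Ltf* in fl/fl library 1. All 5 proliferation markers were lower in fl/fl cells, with a summed level between 988 and 1308 CPM in wt/wt and between 486 and 684 CPM in fl/fl libraries. The part of these markers in the results on the initiation factors was not tested. In bulk RNA, fewer cells of a type and less RNA per cell cannot be told apart.

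Initiation factor transcripts as a whole held a smaller share of the counts in every fl/fl library than in any wt/wt library. The 45 genes held 0.966, 0.976 and 0.976% of the counts in wt/wt libraries 1, 2 and 4 and 0.831, 0.845 and 0.842% in fl/fl libraries 1, 2 and 4. The genotypes did not overlap. The mean share was 0.973 ± 0.0057% in wt/wt and 0.839 ± 0.0073% in fl/fl cells (SD, n = 3 each), and the exact permutation test gave a two-sided p = 0.10, the smallest that 3 against 3 libraries allow (0.117 after adjustment over 7 shares). Even in the shallow library the 95% Wilson interval, which covers counting error only, ran from 0.959 to 0.973%. The eIF3 genes accounted for the widest part of the difference among the 6 groups of factors, with 0.240 ± 0.0115% of the counts in wt/wt and 0.172 ± 0.0069% in fl/fl cells (SD, n = 3 each).

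Gene by gene, 40 of the 45 log2 fold changes were below 0 and 5 were above. The median over the 45 genes was −0.31, beside 0.01 over all 15474 genes tested. At an adjusted p below 0.05 in edgeR, 7 of the 45 (15.6%) were lower in fl/fl cells, beside 3.38% of all genes tested, and 0 were higher, beside 4.45%. The 7 were *Eif3f*, *Eif4a1*, *Eif2s2*, *Eif3e*, *Eif2s1*, *Eif3a* and *Eif3i*. Without the adjustment, 19 members were lower and 0 higher at p below 0.05, beside 10.2% and 12.4% of all genes, and DESeq2 and limma-trend also called 0 higher at an adjusted p below 0.05. The study asks for a log2 fold change of 0.5 or more in either direction and an adjusted p below 0.01, where the adjusted p must hold in limma-trend, edgeR and DESeq2 alike. None of the 45 passed by that rule, and none passed with the adjusted p of edgeR alone, which is used as the threshold of the study here and past which 0.872% of all genes were lower and 1.28% higher. At that threshold DESeq2 called 7 lower and limma-trend called 0. In 29 members all 3 fl/fl libraries were below all 3 wt/wt libraries, beside 15.1% of all genes. In 2 members, *Eif4g2* and *Eif5*, all 3 were above, beside 16.2%. Without wt/wt library 1 these counts were 30 and 3. Fewer libraries separate more readily, and the share of all genes is not given for this comparison. Fold changes within same-numbered libraries had medians of −0.47, −0.20 and −0.28 for numbers 1, 2 and 4. In all 3 of these pairs 31 of 45 members were lower in fl/fl, beside 21.2% of all genes. These include by necessity the 29 members whose fl/fl libraries were all below the wt/wt libraries. The count of 7 depended on the libraries, the tool and the processing. The fit took the library number as a block, although deviations from the genotype mean hardly correlated between same-numbered libraries (−0.012, −0.020 and 0.050). With no replicate block 13 members were called, with no filter 13, and with effective length offsets only *Eif3f*. Without both libraries numbered 1 only *Eif4a1* kept its call, without both numbered 4 *Eif3f* and *Eif4a1* did, and DESeq2 called 14 members. DESeq2, limma-trend and the other alternatives lack a share of all genes called, so their counts cannot be set against 3.38% or 0.872%.

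**Figure D1:**
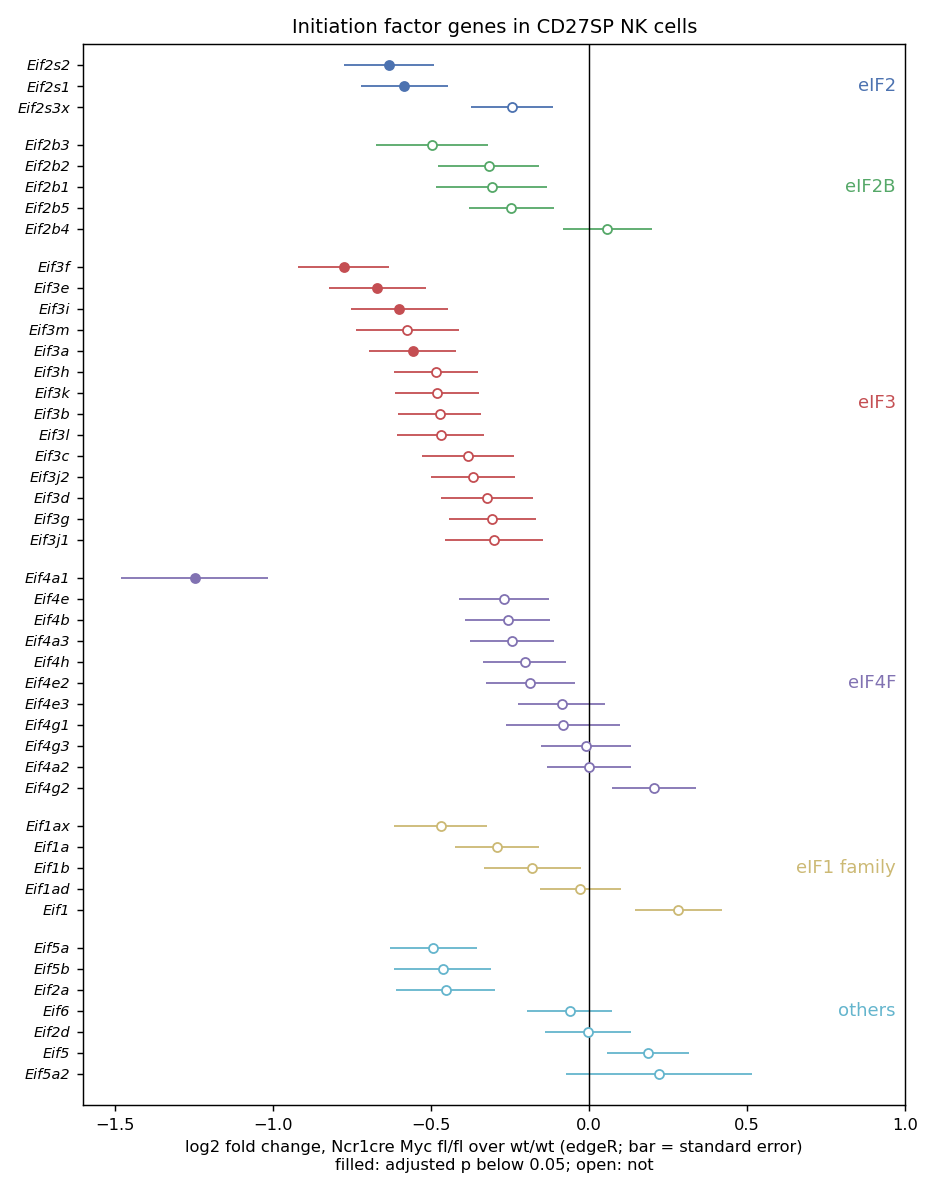
Log2 fold change of Ncr1cre Myc fl/fl over wt/wt for each of the 45 initiation factor genes, grouped by factor, with the standard error of the edgeR fit as the bar. Filled points are the 7 genes at an adjusted p below 0.05; the 14 eIF3 genes all lie between −0.78 and −0.30, whereas the eIF4F group runs from Eif4a1 at −1.25 to Eif4g2 at 0.20.

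MYC binds the E-box CACGTG, so the promoters of the members were searched for it. RefSeq promoter windows on GRCm38.p6, from 250 bases before to 50 bases after a start site, were found for 36 of the 45 genes. The E-box, which reads the same on both strands, was present in 10 of these 36 (27.8%), beside 8.09% of all 27025 symbols with a window and 10.98% of the 10886 that were tested. Of the 7 members that were lower, 5 had a window and 3 of these, *Eif3a*, *Eif3f* and *Eif4a1*, held an E-box. The stretches below belong to the 2 members with the smallest p and, for comparison, to *Eif3k* and *Eif5a2*. The last 2 hold the same element but did not pass the test. In *Eif3k* all fl/fl libraries were nonetheless below all wt/wt libraries, and DESeq2 called it lower. The log2 fold change of *Eif5a2* was 0.22. Each stretch has 30 bases on either side of the E-box, which is in capitals, and is read along the strand of its gene. They lie on chr11:69672577-69672642 (minus strand, 189 bases before the start), chr7:108934317-108934382 (plus strand, 68 bases before), chr7:28981897-28981962 (minus strand, 44 bases before) and chr3:28781130-28781195 (plus strand, 117 bases before).
Eif4a1: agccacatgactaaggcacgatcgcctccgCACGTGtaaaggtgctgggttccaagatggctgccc
Eif3f: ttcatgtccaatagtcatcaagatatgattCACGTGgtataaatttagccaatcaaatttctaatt
Eif3k: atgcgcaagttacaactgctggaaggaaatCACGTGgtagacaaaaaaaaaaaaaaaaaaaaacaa
Eif5a2: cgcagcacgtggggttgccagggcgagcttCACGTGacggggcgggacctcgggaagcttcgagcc
The stretch of *Eif5a2* holds a second E-box, printed in lower case, 142 bases before the start site. The variant CACGCG, read on both strands, cannot overlap CACGTG, although its own matches on the 2 strands can overlap each other. It was present in 8 of the 36 windows (22.2%), beside 10.5% of all symbols and 18.5% of those tested. The element TGATGCAA, to which ATF4 binds with a C/EBP partner, was present on either strand in 0 of 36, beside 1.03% of all symbols. A match describes letters in these windows, and no binding was measured.

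eIF2, the carrier of the initiator tRNA, was lower in its alpha and beta subunit genes. *Eif2s1* (ENSMUSG00000021116.10, chromosome 12 of GRCm38, 78861819 to 78887010) codes for the alpha subunit, on which stress kinases act. It had 299.6, 241.3 and 254.5 CPM in wt/wt libraries 1, 2 and 4 and 171.8, 175.7 and 180.7 CPM in fl/fl libraries 1, 2 and 4. The genotypes did not overlap, and the fl/fl libraries lay closer together than the wt/wt ones (265.1 ± 30.6 against 176.1 ± 4.49 CPM, SD, n = 3 each). The log2 fold change was −0.58 (SE 0.14, adjusted p = 0.0330, edgeR). For *Eif2s2* (ENSMUSG00000074656.12, chromosome 2, 154871410 to 154892935), the beta subunit gene, the values were 153.3, 107.5 and 124.4 CPM in wt/wt and 84.6, 80.5 and 80.6 CPM in fl/fl libraries. Here, too, no fl/fl library reached the lowest wt/wt library, and the log2 fold change was −0.63 (SE 0.14, adjusted p = 0.0268, edgeR). Of 20 alternative fits, *Eif2s1* passed in 15 and *Eif2s2* in 13. Neither passed without both libraries numbered 1 (adjusted p = 0.122 and 0.109, edgeR), and their adjusted p ranged from 0.00207 to 0.122 and from 0.00151 to 0.109 over the alternatives.

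The gamma subunit of eIF2, which binds GTP, is encoded on the X chromosome by *Eif2s3x* (ENSMUSG00000035150.15, 94188707 to 94212862) and on the Y chromosome by *Eif2s3y*. *Eif2s3x* had 84.8, 79.7 and 121.3 CPM in wt/wt libraries 1, 2 and 4 and 69.2, 67.7 and 105.1 CPM in fl/fl libraries 1, 2 and 4. Libraries numbered 4 were the highest in both genotypes, so that the genotypes overlapped. Within each number fl/fl was the lower, at 81.6, 85.0 and 86.6% of wt/wt, but the change did not pass the test (log2 fold change −0.24, SE 0.13, adjusted p = 0.305, edgeR). *Eif2s3y* was measured at 106.5 and 98.3 CPM in wt/wt libraries 1 and 2 and at 0.214 CPM in library 4, and at 92.5, 94.0 and 0.0837 CPM in fl/fl libraries 1, 2 and 4. *Ddx3y*, another Y-linked gene, showed the same split, with 110.4, 89.6 and 0.137 CPM in wt/wt and 112.9, 117.3 and 0.0167 CPM in fl/fl libraries. *Uty* and *Kdm5d*, also Y-linked, were at 0.611 and 3.30 CPM in wt/wt library 4 and at 0.804 and 2.90 CPM in fl/fl library 4, against at least 36.7 and 35.3 CPM in the libraries numbered 1 and 2. Y-linked transcripts were thus at or near 0 in libraries numbered 4 of both genotypes, with *Kdm5d* the highest of the 4 genes there, and the level of these transcripts goes with the numbers. Added together, *Eif2s3x* and *Eif2s3y* had 191.4, 178.0 and 121.6 CPM in wt/wt libraries and 161.7, 161.8 and 105.2 CPM in fl/fl libraries. The sum in fl/fl was thus 84.5, 90.9 and 86.5% of that in the wt/wt library of the same number. An alternative chosen after seeing the data replaced the library number by a term with 2 levels, here called the sex term. It set libraries numbered 4, with Y-linked transcripts at or near 0, apart from those numbered 1 and 2. With the sex term 12 members were lower at an adjusted p below 0.05 in edgeR, with no share of all genes called beside that count.

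**Figure D2:**
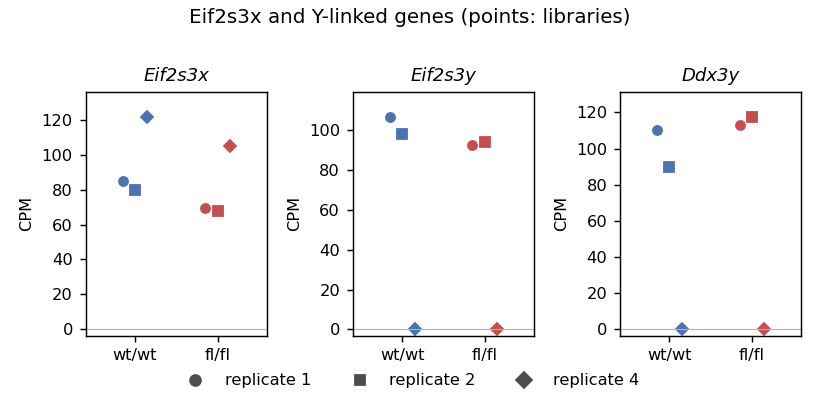
CPM of Eif2s3x, of its Y-linked partner Eif2s3y and of Ddx3y in each library, by genotype, with the library number as the symbol. Libraries numbered 4 are the highest for Eif2s3x and at or near 0 for both Y-linked genes in wt/wt and fl/fl cells alike.

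eIF2B, the exchange factor that recharges eIF2 with GTP, had 5 genes, none of which passed in edgeR, DESeq2 or limma-trend. Of all genes, edgeR called 3.38% lower and 4.45% higher. At an unadjusted p below 0.05 in edgeR, 1 of the 5 was lower and 0 were higher, beside 10.2% and 12.4% of all genes. The median log2 fold change of the 5 was −0.31. In *Eif2b2*, *Eif2b3* and *Eif2b5* the 3 fl/fl libraries were below the 3 wt/wt libraries in CPM, beside 15.1% of all genes. In TPM this held for only 1 of the 5, beside 10.9% of all genes. The lowest value was that of *Eif2b3*, with 33.5 ± 4.00 CPM in wt/wt and 23.6 ± 2.33 CPM in fl/fl cells (SD, n = 3 each; log2 fold change −0.50, adjusted p = 0.125, edgeR). The highest was that of *Eif2b4* (0.06, adjusted p = 0.869, edgeR), the gene of the delta subunit, whose exons overlap those of *Snx17* on the other strand by 204 bases. The medians within same-numbered libraries were −0.71, −0.09 and −0.13, so the largest difference was in the pair with the shallow library. Without the libraries numbered 1 the median log2 fold change was −0.13, and without wt/wt library 1 alone it was −0.19.

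The eIF3 genes were the group in which the genotypes separated for every member. In all 14 genes each fl/fl library was below each wt/wt library, beside 15.1% of all genes tested and 22.2% of the 6283 genes with a mean of at least 28.4 CPM, the level of the least abundant eIF3 gene (a limit set after seeing the data). Being separated in this way, all 14 are necessarily lower in fl/fl within each same-numbered pair, which adds no further evidence. The median log2 fold change was −0.48, and 4 of 14 (28.6%) were lower at an adjusted p below 0.05, beside 3.38% of all genes and 6.19% of the 6283. That count was 9 with no replicate block, with DESeq2 and with no filter, 8 with the sex term, 1 with effective length offsets, 1 without the libraries numbered 4 and 0 without those numbered 1. With a single library left out and no block it lay between 1 (without fl/fl library 1) and 7 (without wt/wt library 1), and was 2 without wt/wt or fl/fl library 4, 3 without fl/fl library 2 and 5 without wt/wt library 2. These counts have no share of all genes beside them, so a setting that calls more genes in general cannot be told apart. A further 4, namely *Eif3b*, *Eif3h*, *Eif3k* and *Eif3m*, had an adjusted p between 0.0563 and 0.0610 in edgeR. The pair medians were −0.62, −0.30 and −0.45 for numbers 1, 2 and 4.

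*Eif3f* (ENSMUSG00000031029.6, chromosome 7, 108934417 to 108942951), whose E-box is printed above, had the lowest fold change of the group. It codes for one of the 2 subunits with an MPN domain. Its values were 138.9, 137.7 and 159.2 CPM in wt/wt libraries 1, 2 and 4 and 72.01, 97.41 and 86.36 CPM in fl/fl libraries 1, 2 and 4. The fl/fl libraries kept 58.4% of the wt/wt level (log2 fold change −0.78, SE 0.14, adjusted p = 0.0124, edgeR), and *Eif3f* passed in 19 of the 20 alternative fits. The exception was the fit without both libraries numbered 1 (adjusted p = 0.0560, edgeR; range 6.07e-05 to 0.0560).

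*Eif3e* (ENSMUSG00000022336.3, chromosome 15, 43250058 to 43282719) codes for a subunit with a PCI domain. It had 226.7, 156.6 and 183.2 CPM in wt/wt and 119.3, 124.6 and 108.7 CPM in fl/fl libraries (log2 fold change −0.67, SE 0.15, adjusted p = 0.0284, edgeR). Its wt/wt library 1 was the highest and its fl/fl library 4 the lowest. *Eif3a* (ENSMUSG00000024991.8, chromosome 19, 60761117 to 60790658) is the gene of the largest subunit, a core on which others assemble. It had 289.9, 259.1 and 279.6 CPM in wt/wt and 168.7, 190.5 and 204.7 CPM in fl/fl libraries (log2 fold change −0.56, SE 0.14, adjusted p = 0.0397, edgeR). In *Eif3a* the gap between the lowest wt/wt and the highest fl/fl library was wider than the range within wt/wt. *Eif3i* (ENSMUSG00000028798.16, chromosome 4, 129591960 to 129600648) codes for a WD-repeat subunit that joins *Eif3b* and *Eif3g* at the edge of the complex. It had 136.8, 103.9 and 111.9 CPM in wt/wt and 71.6, 83.8 and 75.7 CPM in fl/fl libraries (log2 fold change −0.60, SE 0.15, adjusted p = 0.0433, edgeR). *Eif3e*, *Eif3a* and *Eif3i* passed in 14, 13 and 12 of 20 alternatives, and none of them did without the libraries numbered 1 (adjusted p = 0.1202, 0.142 and 0.176, edgeR). Over all alternatives their adjusted p ranged from 0.00176 to 0.1202, from 0.00371 to 0.142 and from 0.00816 to 0.176.

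**Figure D3:**
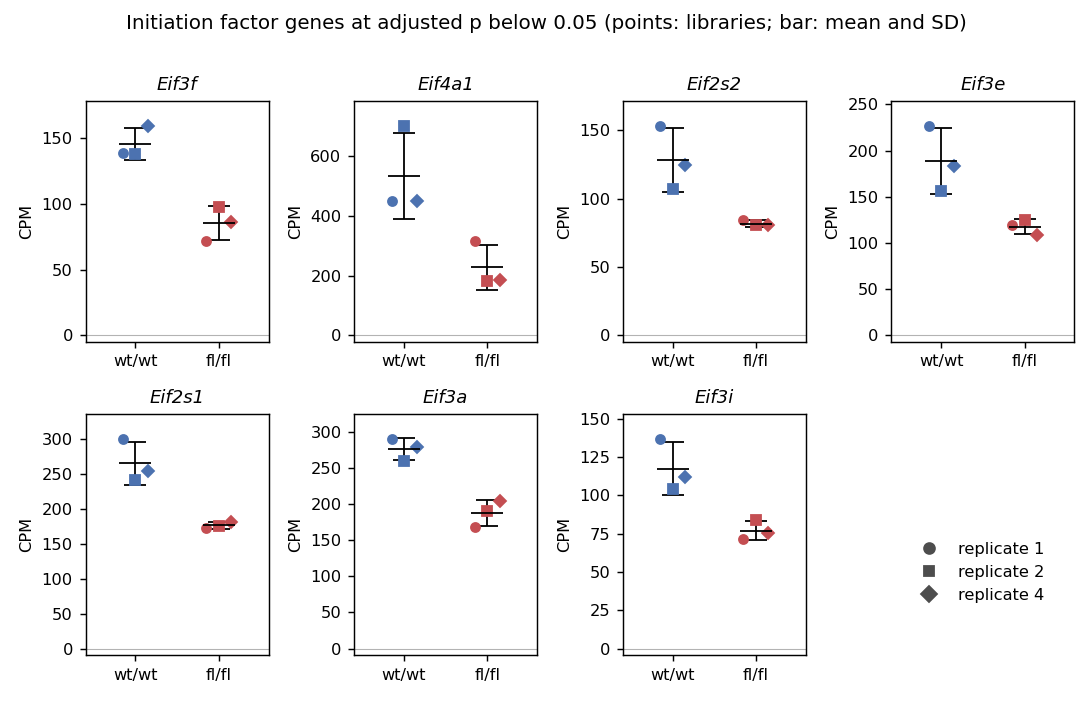
CPM in each library of the 7 initiation factor genes that were lower at an adjusted p below 0.05, with the mean and SD of each genotype (n = 3) as bars. No fl/fl library reaches the lowest wt/wt library in any of the 7; in Eif4a1 the wt/wt library 2 and the fl/fl library 1 stand apart from the others of their genotype.

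The least changed eIF3 gene was *Eif3j1*, for a loosely bound subunit, at −0.30 (adjusted p = 0.298, edgeR). *Eif3j1* (chromosome 2) and *Eif3j2* (chromosome 18) are 99.4% identical over 2379 bases, so that reads could be divided between them, and exons of *Eif3j1* overlap those of *Spg11* by 1107 bases. Their sum does not depend on that division. It was 113.7, 103.3 and 109.8 CPM in wt/wt libraries 1, 2 and 4 and 85.5, 85.3 and 85.5 CPM in fl/fl libraries 1, 2 and 4, or 78.4% of wt/wt.

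Per length, the subunits of eIF3 were not equally abundant. In every library *Eif3j1* had the lowest TPM (transcripts per Mio) and *Eif3g* or *Eif3k* the highest. *Eif3g* had 250.6 ± 11.9 TPM in wt/wt and 220.4 ± 9.64 TPM in fl/fl cells, whereas *Eif3a* had 69.2 ± 0.80 and 49.9 ± 4.49 TPM (SD, n = 3 each). The ratio of highest to lowest was between 17.99 and 25.7. On the TPM scale, too, all 14 genes had every fl/fl library below every wt/wt library, beside 10.9% of all genes. Over all 45 members this held for 24, while *Eif4g2*, *Eif1*, *Eif2d* and *Eif5* had every fl/fl library above, beside 19.2% of all genes. Among the eIF2 genes *Eif2s1* had the highest and *Eif2s3x* the lowest TPM in every library. Of the TPM of *Eif2s1*, however, between 69.0 and 76.1% was on transcripts annotated as noncoding. Among the eIF2B genes *Eif2b2* was the highest and *Eif2b3* the lowest in every library.

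**Figure D4:**
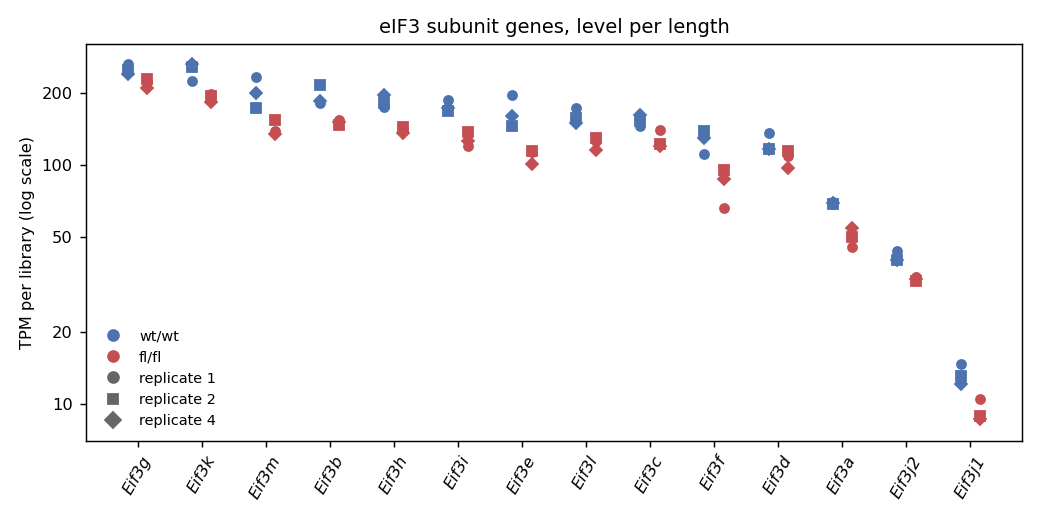
TPM of the 14 eIF3 subunit genes in each library, on a log scale, ordered by the mean of wt/wt. For every gene the 3 fl/fl points lie below the 3 wt/wt points, and the order runs from Eif3g, at 250.6 TPM in wt/wt, to Eif3j1.

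In the eIF4F group, which holds the cap-binding complex with its relatives and helpers, 1 of 11 genes was lower (9.09%, beside 3.38% of all genes) and the median log2 fold change was −0.19, or −0.11 without the libraries numbered 2. That gene was *Eif4a1* (ENSMUSG00000059796.16, chromosome 11, 69666936 to 69672423), the RNA helicase that unwinds the leader of the mRNA. It showed the largest fold change of the 45 members. Its values were 447.6, 699.3 and 449.8 CPM in wt/wt libraries 1, 2 and 4 and 314.0, 183.2 and 183.7 CPM in fl/fl libraries 1, 2 and 4. The genotypes did not overlap, although the spread was wide in both (532.2 ± 145 and 227.0 ± 75.4 CPM, SD, n = 3 each). The log2 fold change was −1.25 (SE 0.23, adjusted p = 0.0127, edgeR), and within same-numbered libraries it was −0.51, −1.93 and −1.29. *Eif4a1* passed in 18 of the 20 alternative fits, with an adjusted p from 1.01e-05 to 0.0652. It was not called with offsets from the effective lengths (0.0652, edgeR) or without fl/fl library 2 (0.0560, edgeR). Its exons overlap small nucleolar RNA genes, and between 30.3 and 32.7% of its TPM was on noncoding transcripts in 5 libraries, against 10.05% in the shallow wt/wt library 1.

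Other genes of eIF4F had smaller values. *Eif4e*, the cap-binding protein, *Eif4b* and *Eif4h*, which stimulate the helicase, and *Eif4a3*, the helicase of the exon junction complex, had log2 fold changes of −0.27, −0.26, −0.20 and −0.25, and in each of them the fl/fl libraries were below the wt/wt libraries in CPM, beside 15.1% of all genes. None of these passed the test. On the TPM scale only 2 of the 11 genes had all fl/fl libraries below, beside 10.9% of all genes. In CPM it was 5, beside 15.1%. *Eif4g1*, the scaffold of eIF4F, was at −0.08, with an adjusted p of 0.852 in edgeR. The highest of the group was *Eif4g2*, a relative of *Eif4g1* that lacks the site for eIF4E, with 1214.6, 1060.3 and 1043.0 CPM in wt/wt and 1314.8, 1222.3 and 1278.4 CPM in fl/fl libraries. Its fl/fl libraries were all above its wt/wt libraries, but the difference did not pass (log2 fold change 0.20, SE 0.13, adjusted p = 0.416, edgeR).

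The balance of *Eif4a1* and its close paralogue *Eif4a2* was compared next. *Eif4a2* had a log2 fold change of −0.0005 (adjusted p = 0.999, edgeR), the sign of which changed between alternatives. Of the TPM of both genes together, *Eif4a2* held 21.4, 13.9 and 21.8% in wt/wt libraries 1, 2 and 4 and 24.7, 39.4 and 42.2% in fl/fl libraries 1, 2 and 4. The fl/fl libraries were all above the wt/wt libraries (19.0 ± 4.48% against 35.4 ± 9.39%, SD, n = 3 each; exact permutation test, p = 0.10, the smallest possible, and 0.30 after adjustment over 9 pairs). In 2 further pairs the genotypes did not overlap. *Eif1b* held 3.94 ± 0.401% of the pair with *Eif1* in wt/wt and 3.11 ± 0.253% in fl/fl cells, and *Eif4e3* held 10.03 ± 2.05% of the pair with *Eif4e* in wt/wt and 12.03 ± 0.527% in fl/fl cells (exact permutation test, p = 0.10 and adjusted p = 0.30 for both). Without wt/wt library 1 the difference for *Eif4e3* fell from 2.00 to 0.826 percentage points. The other 6 pairs overlapped.

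The eIF1 family, which guards the choice of the start codon, had 0 of 5 genes called by edgeR or limma-trend. DESeq2 called 1 lower, *Eif1ax*. Of all genes, edgeR called 3.38% lower and 4.45% higher. At an unadjusted p below 0.05 in edgeR, 1 of the 5 was lower and 0 were higher, beside 10.2% and 12.4% of all genes. The median log2 fold change of the family was −0.18. Without the libraries numbered 1 and 2 that median was −0.07 and −0.32, and without wt/wt library 1 and 2 alone −0.09 and −0.29. With the trend with gene length removed it was −0.05. Its members went different ways. *Eif1ax*, an eIF1A gene, had 132.1, 82.9 and 94.8 CPM in wt/wt and 79.0, 72.3 and 68.3 CPM in fl/fl libraries, without overlap (log2 fold change −0.47, SE 0.15, adjusted p = 0.0873, edgeR). It passed in 1 of 20 alternatives, DESeq2 (adjusted p = 0.0435), and its adjusted p ranged up to 0.295 over the alternatives. *Eif1* had 777.6, 838.8 and 991.1 CPM in wt/wt and 908.5, 1161.2 and 1100.9 CPM in fl/fl libraries. Its fl/fl library 1 lay within the range of wt/wt, and the difference did not pass (log2 fold change 0.28, SE 0.14, adjusted p = 0.264, edgeR). *Eif1* is 96.7% identical to *Emd* over 662 bases, and the exons of *Eif1ad* overlap those of *Banf1* by 428 bases, so their counts are less certain. As a share of the counts, the eIF1 family held 0.126 ± 0.0124% in wt/wt and 0.140 ± 0.0137% in fl/fl cells (SD, n = 3 each), which overlapped (exact permutation test, p = 0.20).

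The 7 remaining factors had a median of −0.06, and none passed in edgeR or limma-trend, whereas DESeq2 called 1. Of all genes, edgeR called 3.38% lower and 4.45% higher. At an unadjusted p below 0.05 in edgeR, 3 of the 7 were lower and 0 higher, beside 10.2% and 12.4% of all genes. The median of the 7 was −0.15 and −0.02 without the libraries numbered 1 and 2, and −0.17 and −0.018 without wt/wt library 1 and 2 alone. With the trend with gene length removed it turned to 0.02, and it was −0.04 by upper quartile and with at least 10 counts in every library. *Eif5a*, which is modified by hypusine and acts largely in elongation, had 1401.6, 1281.1 and 1274.1 CPM in wt/wt and 881.5, 966.4 and 964.3 CPM in fl/fl libraries. The genotypes of *Eif5a* did not overlap, with 71.1% of the wt/wt level in fl/fl cells, but it missed the threshold (log2 fold change −0.49, SE 0.14, adjusted p = 0.0582, edgeR). It was called lower in 5 of 20 alternatives, namely no replicate block, DESeq2, no filter, the sex term and the fit without wt/wt library 1. *Eif5b*, the GTPase that joins the subunits, and *Eif2a* were at −0.46 and −0.45, both without overlap. Exons of *Eif5b* overlap those of *Rev1* by 1643 bases. *Eif5*, which makes eIF2 hydrolyse its GTP, had all fl/fl libraries above wt/wt (493.4 ± 31.4 and 561.5 ± 36.0 CPM, SD, n = 3 each; log2 fold change 0.19, adjusted p = 0.448, edgeR). *Eif5a2*, the weakly expressed relative of *Eif5a*, had the highest fold change of these 7, 0.22, with 8.70, 10.6 and 12.2 CPM in wt/wt and 14.7, 16.4 and 7.60 CPM in fl/fl libraries (SE 0.29, adjusted p = 0.730, edgeR). Its fl/fl library 4 was below all wt/wt libraries and the other two were above.

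The make-up of the transcripts was read as well, a measure chosen after seeing the data. In 32 members with coding and noncoding transcripts, the share of TPM on noncoding transcripts was above wt/wt in all fl/fl libraries for 1, *Eif4g1* (6.72 ± 3.06% against 13.1 ± 2.48%, SD, n = 3 each), beside 5.08% of all genes. It was below in 2, *Eif1ax* (78.4 ± 5.78% against 71.7 ± 2.14%) and *Eif4e* (11.8 ± 10.5% against 3.34 ± 1.39%), beside 6.4%. Both differences rest in part on the shallow wt/wt library 1, without which they shrank from −6.74 to −3.42 percentage points in *Eif1ax* and from −8.44 to −2.38 in *Eif4e*. These shares are near the background.

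Other genes of translation were read from the same fit to place the initiation factors. Of 11 elongation and termination factor genes tested, 5 were lower at an adjusted p below 0.05 (beside 3.38% of all genes) and 4 passed the threshold of the study in edgeR (beside 0.872%), namely *Eef1a1* (log2 fold change −0.96, adjusted p = 0.0076), *Eef1b2* (−0.93, adjusted p = 0.0051), *Eef1g* (−0.91, adjusted p = 0.0056) and *Eef2* (−0.84, adjusted p = 0.0064). The median over all 11, −0.48, was that of the eIF3 genes to 2 decimals. Of 14 genes of other proteins that act on the mRNA or the subunits around initiation, 5 were lower, beside the same 3.38%. They include proteins known to hold translation back, *Paip2b*, which sequesters the poly(A)-binding protein, and *Larp1*, a repressor of TOP mRNAs (−0.97, adjusted p = 0.0134, edgeR; named after its value was seen). *Pabpc1*, the poly(A)-binding protein, and *Paip2b* passed the threshold of the study (−0.87 and −0.998, adjusted p = 0.0094 and 0.0086, edgeR). Among 14 regulators of the initiation factors, 0 were lower and 1 was higher (beside 3.38% and 4.45% of all genes), *Ppp1r15a*, which directs the removal of phosphate from eIF2 alpha. *Ppp1r15a* had 165.6, 270.6 and 327.1 CPM in wt/wt and 420.3, 493.1 and 674.9 CPM in fl/fl libraries (log2 fold change 1.08, adjusted p = 0.0039, edgeR). At an unadjusted p below 0.05, 1 regulator was lower and 2 were higher, beside 10.2% and 12.4% of all genes. None of the 8 mitochondrial translation factor genes passed, with 3 lower and 0 higher at an unadjusted p below 0.05 (beside the same 10.2% and 12.4%), and those with the smallest p were *Tsfm* (−0.43, adjusted p = 0.101, edgeR) and *Gfm1* (−0.46, adjusted p = 0.108, edgeR).

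**Figure D5:**
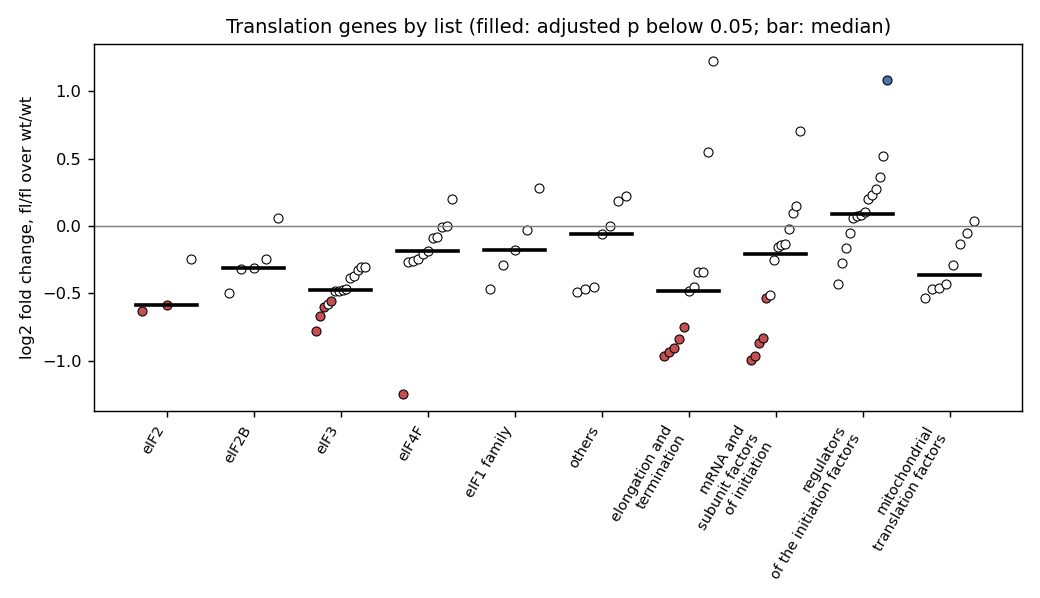
Log2 fold change of fl/fl over wt/wt for the 6 groups of initiation factors and for 4 further lists of translation genes, 1 point per gene, with the median as a bar. Filled points passed an adjusted p below 0.05; they lie below 0 except for Ppp1r15a, the regulator at 1.08.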

How the data were processed

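RNA-seq tables of 6 libraries were used. The authors deposited, for every transcript, an estimated count (not normalized), a TPM value and an effective length. The columns have kallisto's format, whereas the methods and the submitters' processing notes name Salmon and GRCh38; the transcript identifiers are those of mouse. The deposited estimated counts of all transcripts of a gene symbol in GENCODE M21 (GRCm38) were added, with between 0.129 and 0.169% of the counts left without a symbol, and were rounded. Genes were kept by filterByExpr (15474 genes), scaled by TMM and tested with edgeR 4.0.16 in R 4.3.3 (quasi-likelihood test, library number as a block, since the study calls its analyses paired), with Benjamini-Hochberg adjustment over all genes tested. CPM are scaled by TMM, and TPM were summed by symbol as deposited by the authors. DESeq2 1.42.0, limma-trend 3.58.1 and other scalings, filters, offsets and left-out libraries served as alternatives. Shares were compared by exact permutation tests (scipy 1.17.1). Near-identical copies, at least 95% identity over 300 bases, were sought with blastn 2.17.0. Promoters came from RefSeq (GRCm38.p6).

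The members, the groups of factors and the other gene lists were chosen with earlier results of these data known. Values per library were given for the members called at an adjusted p below 0.05 and *Eif2s3x*, for *Eif4g2*, *Eif1ax*, *Eif1*, *Eif5a* and *Eif5a2*, the lowest or highest of their groups, and for *Myc*, *Ppp1r15a* and Y-linked genes outside the members. Named as well were the lowest and highest member of each group and, of each outside list, the genes past the threshold of the study or else the 2 with the smallest p; any other gene was named after its values were seen. Some cell type markers are not reported here and were left out of the marker lists. Replicates of a genotype differed by more than counting noise (chi-square per degree of freedom 39.2 to 99.0). Depth, between 8101219 and 64962491 counts, limits wt/wt library 1 most.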

Additional observations from a re-analysis of the deposited data

How the results depend on the processing

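The count of 7 members lower at an adjusted p below 0.05 moved both ways. The counts below have no share of all genes called beside them, so a setting that calls more genes in general cannot be told apart. The library numbers were taken as a block, but deviations from the genotype mean correlated by only −0.012, −0.020 and 0.050 between libraries numbered 1, 2 and 4 over 15474 genes, below the limit of 0.1 for taking equal numbers as pairs, and no replicate block gave 13 members. DESeq2 gave 14, no filter 13, the sex term (chosen after seeing the data) 12 and effective length offsets 1. With a number left out in both genotypes the count lay between 1 (number 1) and 6 (number 2). With a single library left out and no block it lay between 2 (without fl/fl library 1) and 11 (without wt/wt library 1), with 8 without wt/wt library 2 and 4 without wt/wt library 4, fl/fl library 2 or fl/fl library 4. Past the threshold of the study, where the main count was 0, no replicate block, the sex term and the fit without number 1 each gave 1, DESeq2 gave 7 and no filter gave 4. No alternative called a member higher. The median over the 45 genes stayed between −0.38 and −0.24. The median of eIF4F lay between −0.25 and −0.11 without a number, was −0.14 without wt/wt library 2 and −0.23 without fl/fl library 4 (no block), and was −0.13 with the trend with gene length removed, which also took that of the eIF1 family from −0.18 to −0.05 and turned that of the 7 remaining factors to 0.02. The cause of these shifts was not tested.

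Of 945 single values of members under an alternative, 837 kept direction and side of the threshold, 36 lost and 31 gained the call, 2 with no test moved in size, and 39 changed sign, in 8 genes that were not called. *Eif4a2* turned to 0.0014 with no replicate block, 0.0023 with the sex term, 0.013 by library size, 0.022 by upper quartile, 0.0643 with effective length offsets, 0.013 with no filter, 0.026 with at least 10 counts in every library and 0.053 with the length trend removed. In the same order from library size on, *Eif2d* turned to 0.011, 0.019, 0.031, 0.010, 0.023 and 0.020. *Eif4g3* turned to 0.0042 by library size, 0.013 by upper quartile, 0.0039 with no filter and 0.016 with at least 10 counts, *Eif4g1* to 0.056 with the offsets and *Eif6* to 0.036 with the length trend removed. With both libraries of a number left out, *Eif4a2* lay between −0.0569 and 0.0660, *Eif2d* between −0.0894 and 0.0859, *Eif4g1* between −0.30 and 0.19, *Eif4g3* between −0.16 and 0.0734, *Eif1ad* between −0.0680 and 0.0049, *Eif4e3* between −0.16 and 0.0013 and *Eif5a2* between −0.0267 and 0.67. With a single library left out and no block, *Eif4a2* turned to 0.0893 without wt/wt library 4 and 0.0993 without fl/fl library 1. Likewise *Eif4g1* turned to 1.51e-05 without wt/wt library 2 and 0.127 without fl/fl library 2, *Eif4g3* to 0.0468, 0.0012 and 0.0645 without wt/wt library 1, wt/wt library 2 and fl/fl library 2, *Eif1ad* to 0.0447 and 0.0566 without wt/wt library 2 and fl/fl library 1, and *Eif2d* to 0.0738 and 0.0075 without wt/wt library 1 and fl/fl library 4.

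The difference in the share of counts was −0.095 percentage points in TPM. Among the paralogue pairs, estimated counts in place of TPM moved *Eif5a2* to 0.567 and *Eif1b* to −1.59 percentage points and turned *Eif4g3* to 1.11 and *Eif3j2* to −0.976. With a library left out, *Eif4e2* lay between −1.18 (without wt/wt library 1) and 5.45, *Eif4g3* between −8.48 and 1.39 (without wt/wt library 1) and *Eif4g2* between −1.02 (without wt/wt library 2) and 3.28. Depth limits wt/wt library 1, with 8101219 counts.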
